A study of Mus musculus with 6 samples.

Results

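The genes described are 10 transcription factors that direct myeloid cell fate: Cebpa, Cebpb, Cebpd, Cebpe, Spi1, Gfi1, Irf8, Klf4, Gata2 and Runx1. They were picked by name, with earlier results of these data known, and all 10 had an entry among the 26384 gene entries of the expression table. Of these, 9 were found by their symbol. The remaining gene, Spi1, was listed under its older symbol Sfpi1, which RefSeq gives as a synonym. Expression was measured by bulk RNA-Seq in 6 libraries, 3 from mice given FF-10501-01 and 3 from mice given vehicle. FF-10501-01 is an oral inhibitor of IMPDH, the enzyme that sets the pace of guanine nucleotide production. The mice received 2 doses of FF-10501-01 at 160 mg/kg, or of vehicle alone, on consecutive days, and bone marrow was taken 48 h after the first dose. That schedule is from the treatment section of the methods, while their RNA-Seq section gives a shorter time from treatment to harvest and names no consecutive doses. The methods name a methyl cellulose solution as the vehicle, while the labels describe the vehicle libraries as water. The labels also name more than one amount of input RNA without saying which library had which, and its part in the levels was not tested.

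All 6 libraries came from MLL-AF9 leukemia in young adult C57BL/6J mice. This leukemia was made from c-Kit+ bone marrow cells by a retroviral vector that carries the human MLL-AF9 fusion oncogene and GFP, and it had been passed through several rounds of mice to raise its leukemogenicity. It was grown in recipients that had not been irradiated, so that host blood cells were present in the marrow, and the cells were separated from them by sorting for GFP. The vehicle libraries therefore also carry the oncogene, and no library here is from normal marrow. Because the RNA was bulk RNA, fewer cells of a type and less RNA per cell cannot be told apart.

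These factors form a small network. C/EBPα and PU.1, the protein of Spi1, open the myeloid programme in progenitors, and Runx1 and Gata2 act before them in stem and early progenitor cells. C/EBPε and Gfi1 drive the later steps of neutrophil formation, in which granules are filled, while Irf8 and Klf4 drive monocyte formation, and Gfi1 and Irf8 oppose each other at that choice. C/EBPβ and C/EBPδ are the members of the C/EBP family that are called up by cytokines and inflammation. MLL-AF9 leukemia resembles a granulocyte and monocyte progenitor held before these last steps.

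The promoters of Cebpa and Gata2 are shown because these were the factors whose FF-10501-01 libraries all lay below every vehicle library, and because they were the only ones with a C/EBP half-site among the 7 factors that could be matched. The windows are the 250 bases before each start site of RefSeq (build GRCm38.p6), all on the + strand, at chr7:35119043-35119292 for Cebpa and at chr6:88193641-88193890 and chr6:88198414-88198663 for the first and second start of Gata2. Capitals mark the C/EBP half-site TTGCG, and, in the first Gata2 window, a match to the RUNX motif TGNGGT on the reverse strand.
Cebpa: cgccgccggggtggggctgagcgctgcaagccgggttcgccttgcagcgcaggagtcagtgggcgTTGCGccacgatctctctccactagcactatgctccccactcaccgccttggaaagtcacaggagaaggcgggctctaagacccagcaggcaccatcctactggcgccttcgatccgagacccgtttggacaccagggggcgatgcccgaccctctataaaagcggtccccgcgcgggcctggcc
Gata2, first start: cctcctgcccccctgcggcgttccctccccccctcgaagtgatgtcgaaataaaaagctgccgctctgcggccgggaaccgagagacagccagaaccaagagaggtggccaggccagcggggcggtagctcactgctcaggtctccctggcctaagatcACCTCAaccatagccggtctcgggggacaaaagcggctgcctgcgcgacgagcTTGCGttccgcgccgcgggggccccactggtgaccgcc
Gata2, second start: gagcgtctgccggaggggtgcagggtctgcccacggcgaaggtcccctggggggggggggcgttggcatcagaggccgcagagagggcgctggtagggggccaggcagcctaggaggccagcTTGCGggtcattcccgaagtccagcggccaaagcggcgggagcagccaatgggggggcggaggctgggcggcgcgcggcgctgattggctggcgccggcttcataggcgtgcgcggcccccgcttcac

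The half-site lay at positions -185 to -181 from the start of Cebpa, at -38 to -34 from the first start of Gata2 and at -128 to -124 from its second start. A window holding TTGCG on either strand is not rare, as 14.5% of 32851 RefSeq promoter windows of the same length did. The RUNX match, at -91 to -86 from the first Gata2 start, is a still more common kind, present in 40.1% of windows. On both strands, 5 further motifs were searched, namely GAGGAA for PU.1 (23.3% of windows), AGATAA for GATA factors (9.99%), AAATC for Gfi1 (32.7%), a paired GAAA motif of IRF factors (2.98%) and an NF-kB motif (1.41%). AAATC was found before both starts of Irf8 and the first start of Runx1, GAGGAA before the second start of Runx1, and TGNGGT before the second starts of Gfi1 and Irf8. The windows of Cebpb and Klf4 held none of these letters, and Cebpd, Cebpe and Spi1 were not matched.

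After FF-10501-01, Cebpd, Cebpe and Spi1 were higher and Gata2 was lower, each by a modest amount, while Cebpb, Irf8, Klf4 and Runx1 differed by less than the test could separate. Cebpa and Gfi1 did not pass after adjustment. Levels are FPKM, the number of sequenced fragments per unit of transcript length and of sequencing depth, so that levels of different genes can be compared. The test was limma on log2(FPKM + 1) over the 11004 entries with a mean of at least 1 FPKM, and entries passed when p fell under 0.05 after Benjamini-Hochberg adjustment. All 10 factors were above that minimum. Of them, 3 passed as higher, where 7.43% of all entries tested did so, and 1 passed as lower, against 7.46% of all entries. The median log2 fold change was 0.07 over the 10 factors and -0.01 over all entries tested.

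**Figure D1:**
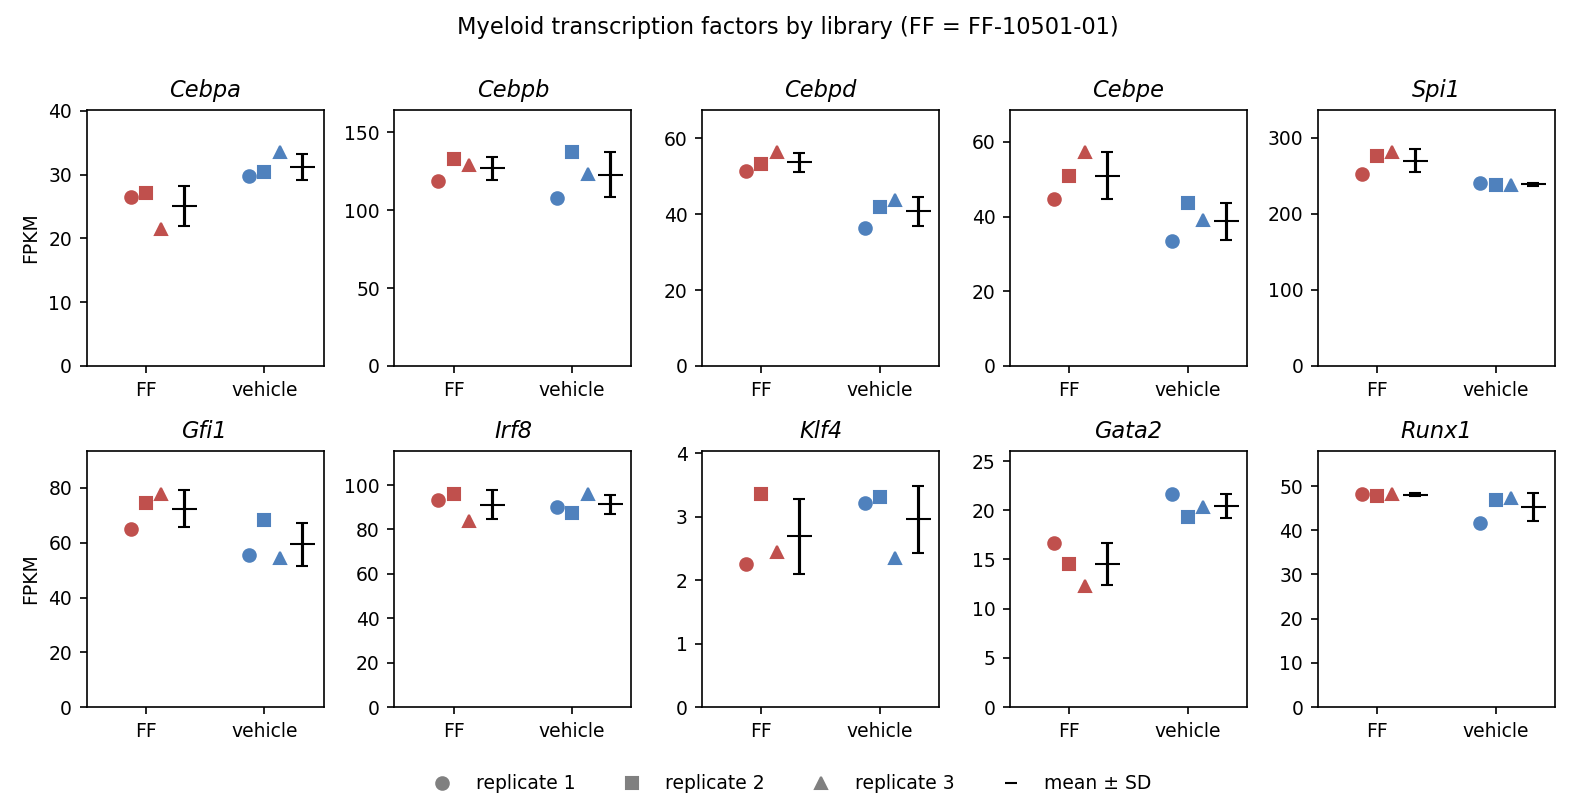
FPKM of each of the 10 factor genes (vertical axes, each starting at 0 with its own scale) in the 3 FF-10501-01 libraries (left of each panel) and the 3 vehicle libraries (right). Symbols are libraries and bars are the mean ± SD, and the groups stand apart in Cebpa, Cebpd, Cebpe, Spi1, Gata2 and Runx1.

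Counted without a test, the FF-10501-01 libraries all lay above the vehicle libraries in 4 factors (Cebpd, Cebpe, Spi1 and Runx1), where 17.6% of all entries did so, and all below them in 2 (Cebpa and Gata2), where 21.2% did so. In the other 4 the groups overlapped. In either direction, 38.8% of all entries had groups that did not overlap. An unadjusted p under 0.05 was reached by 6 factors, and by 32.8% of all entries tested. The sizes of change varied widely among the factors, as Gata2 stood at percentile 95.7 of all entries by the size of its log2 fold change, Cebpd at 93.1 and Cebpe at 92.8, while Spi1 stood at 69.7 and Irf8 at 1.41.

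**Figure D2:**
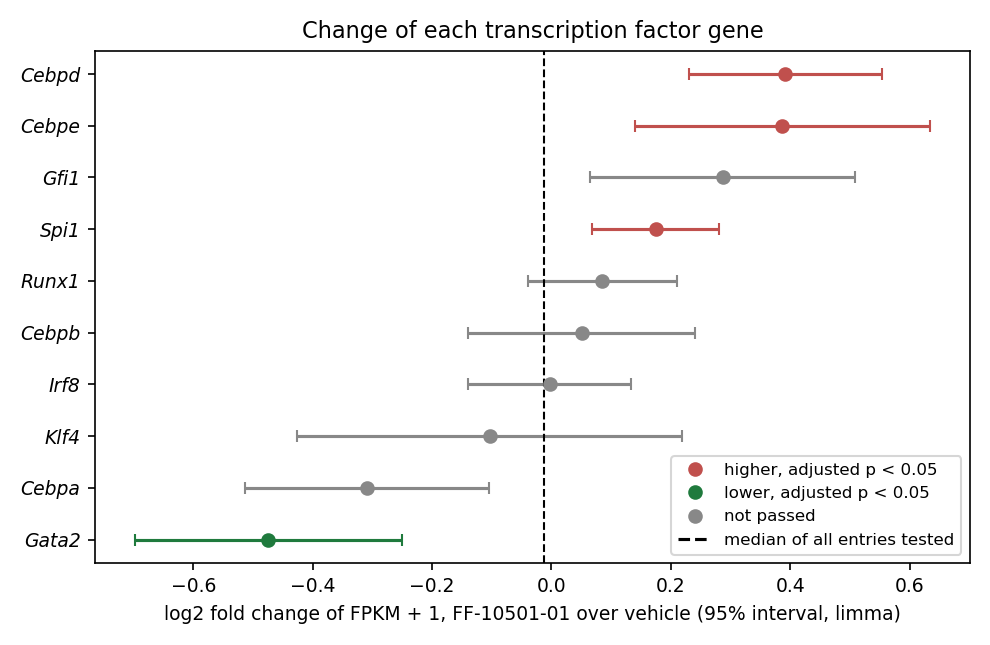
log2 fold change of FPKM + 1 (horizontal axis, FF-10501-01 over vehicle) of each factor gene with its 95% interval from limma, ordered from the largest rise at the top to the largest fall at the bottom. Cebpd, Cebpe and Spi1 lie right of the dashed median of all entries and Gata2 left of it with intervals clear of 0, as were those of Cebpa and Gfi1, which did not pass after adjustment.

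Cebpd (chr16:15887286-15891031, + strand) encodes C/EBPδ, an acute-phase member of the family that is induced by cytokines. It had 51.5, 53.1 and 56.3 FPKM in the FF-10501-01 libraries, against 36.5, 41.9 and 43.8 FPKM in the vehicle libraries. Every FF-10501-01 library was therefore above every vehicle library, and the ratio of the means was 1.32. The log2 fold change was 0.39 ± 0.07 (SE, n = 3 each), with an adjusted p of 0.0157 from limma. Exons of Cebpd overlap exons of Spidr, a gene on the opposite strand, whose entry (2310008H04Rik) had 21.2 FPKM in FF-10501-01 and 20.9 FPKM in vehicle. The library kit keeps strand, but whether strand was used in making the FPKM is not given in the sources used here. The call on Cebpd was lost only without FF-10501-01 replicate 3 (adjusted p = 0.0649 from limma).

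Cebpe (chr14:54710360-54712174, - strand) encodes C/EBPε, which neutrophil precursors need to make their secondary granules. Its level was 44.6, 50.9 and 57.2 FPKM in FF-10501-01 and 33.5, 43.5 and 39.2 FPKM in vehicle. The lowest FF-10501-01 library was only just above the highest vehicle library, and the libraries of each group were spread more widely than those of Cebpd. Cebpe rose by 0.39 ± 0.11 on the log2 scale (SE, n = 3 each, adjusted p = 0.0473 from limma), a ratio of means of 1.31. Its adjusted p from limma was above the threshold without vehicle replicate 1 (0.136) or 3 (0.102), without FF-10501-01 replicate 2 (0.109) or 3 (0.153), with no filter on low values (0.110) and without the variance trend (0.0760).

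Cebpa (chr7:35119293-35121928, + strand), whose protein C/EBPα is required for the formation of granulocyte and monocyte progenitors, went the other way in level but did not pass. There were 26.5, 27.2 and 21.5 FPKM of Cebpa in FF-10501-01 and 29.7, 30.4 and 33.5 FPKM in vehicle, without overlap. Its log2 fold change of -0.31 had a 95% interval from -0.51 to -0.10 and an adjusted p of 0.0521 from limma. With the filter raised to a mean of 5 FPKM, the adjusted p from limma was 0.0441.

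Cebpb (chr2:167688915-167690418, + strand), the most abundant of the family, encodes C/EBPβ, which drives emergency granulopoiesis and macrophage genes. The FF-10501-01 libraries had 118.7, 132.9 and 129.0 FPKM of Cebpb, and the vehicle libraries 108.2, 137.2 and 123.4 FPKM. The vehicle libraries enclosed the FF-10501-01 ones at both ends. The log2 fold change of 0.05 had an interval from -0.14 to 0.24 and turned to -0.04 without vehicle replicate 1, so no direction is given for Cebpb.

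Since C/EBP proteins pair with each other and bind the same DNA, the make-up of the family was also computed, as the share of each gene in the summed FPKM of Cebpa, Cebpb, Cebpd, Cebpe and Cebpg. This measure was chosen after the values were seen. Cebpa made up 9.43% ± 1.42 of the family in FF-10501-01 and 12.98% ± 1.18 in vehicle (SD, n = 3 each). Cebpd made up 20.1% ± 0.65 in FF-10501-01 and 16.9% ± 0.80 in vehicle, and Cebpe 19.0% ± 1.59 in FF-10501-01 and 16.0% ± 0.58 in vehicle. The share of Cebpb was 47.5% ± 0.78 in FF-10501-01 and 50.8% ± 1.48 in vehicle.

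**Figure D3:**
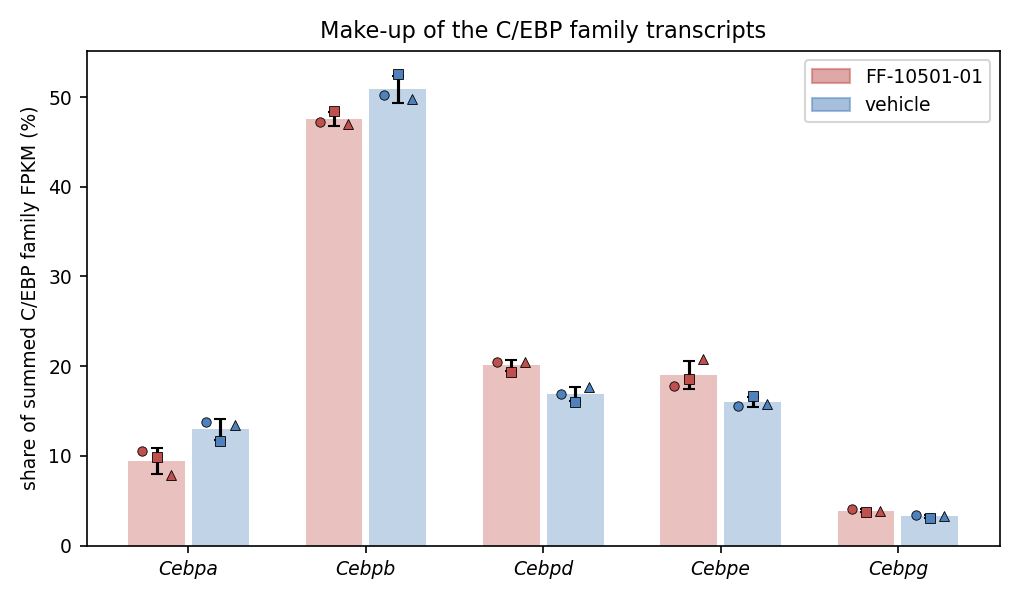
Share of each C/EBP gene in the summed FPKM of the 5 family genes (percent, vertical axis from 0), with bars for the group mean, error bars for the SD and symbols for the 3 libraries of each group. Cebpa and Cebpb take smaller shares and Cebpd, Cebpe and Cebpg larger ones in FF-10501-01 (left bars) than in vehicle (right bars).

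In none of the 5 genes did the shares of the groups overlap, and each gave p = 0.1 in an exact two-sided permutation test, the smallest that 3 libraries against 3 allow. Shares of 1 total are tied to each other, so that these are not 5 separate results. The family sum was 267.0 ± 13.2 FPKM in FF-10501-01 and 241.5 ± 23.6 FPKM in vehicle (SD, n = 3 each, exact permutation p = 0.2), with overlap. Cebpg, which encodes a partner without an activation domain of its own, had 10.4 ± 0.24 FPKM in FF-10501-01 and 7.92 ± 0.44 FPKM in vehicle (SD, n = 3 each) and passed as higher (log2 fold change 0.36, adjusted p = 0.0136 from limma, 0.0579 without FF-10501-01 replicate 3).

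Spi1 (entry Sfpi1, chr2:91082390-91115756, + strand) encodes PU.1, the ETS factor that sets the myeloid programme and whose dose decides between lineages. It was the most abundant of the 10 factors, at percentile 97.4 of all entries by level. The FF-10501-01 libraries had 252.5, 276.5 and 280.7 FPKM and the vehicle libraries 240.9, 238.1 and 237.5 FPKM. All FF-10501-01 libraries were above the vehicle libraries, which lay very close together. The rise was small, with a ratio of means of 1.13 and a log2 fold change of 0.17 ± 0.05 (SE, n = 3 each, adjusted p = 0.0409 from limma). For Spi1, the adjusted p from limma was above the threshold without vehicle replicate 1 (0.102), 2 (0.0683) or 3 (0.104), without FF-10501-01 replicate 2 (0.110) or 3 (0.136), with no filter (0.0835) and without the variance trend (0.0832).

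Gfi1 (chr5:107716657-107726036, - strand) encodes a repressor that favours neutrophils over monocytes. There were 65.0, 74.5 and 78.0 FPKM of Gfi1 in FF-10501-01 and 55.5, 68.4 and 54.3 FPKM in vehicle. The groups overlapped because vehicle replicate 2 was above FF-10501-01 replicate 1. Its log2 fold change of 0.29, with an interval from 0.06 to 0.51, did not pass (adjusted p = 0.0800 from limma), and without vehicle replicate 2 the adjusted p was 0.0188.

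Irf8 (chr8:120736358-120756694, + strand), which drives monocyte and dendritic cell fate and restrains neutrophil output, differed between the groups by less than their spread. Its values were 93.3, 96.2 and 84.0 FPKM in FF-10501-01 and 90.3, 87.6 and 95.9 FPKM in vehicle. The log2 fold change was 0.00 with a 95% interval from -0.14 to 0.13, so a change of Gata2's size lies outside it, and its sign turned with the scaling between libraries. Klf4 (chr4:55527143-55532466, - strand), a factor of monocyte formation, was scarce, at percentile 11.8 of all entries by level. Klf4 had 2.26, 3.36 and 2.44 FPKM in FF-10501-01 and 3.21, 3.30 and 2.35 FPKM in vehicle. Its groups overlapped fully, and at this level the interval of the log2 fold change was wide, from -0.43 to 0.22.

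Gata2 (chr6:88193891-88207032, + strand) encodes a zinc finger factor of stem cells, early progenitors and the mast cell and basophil lineage. It had 16.6, 14.6 and 12.3 FPKM in the FF-10501-01 libraries and 21.7, 19.3 and 20.3 FPKM in the vehicle libraries. The groups were well apart, and FF-10501-01 replicate 3 was the lowest. Gata2 fell by 0.47 on the log2 scale (SE 0.10, n = 3 each, adjusted p = 0.0212 from limma), the largest change among the 10 factors, with a ratio of means of 0.71. The adjusted p from limma was above the threshold without FF-10501-01 replicate 2 (0.0530) or 3 (0.0608), without vehicle replicate 1 (0.0749) or 3 (0.0584) and with no filter on low values (0.0600).

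Markers of mast cells and basophils, which also carry Gata2, were looked at beside it. All 10 listed had an entry, 4 reached the minimum level and 1 of these passed as lower, where 7.46% of all entries tested did so. That was Mcpt8, a basophil protease, with 3.78 ± 0.35 FPKM in FF-10501-01 and 5.86 ± 0.27 FPKM in vehicle (SD, n = 3 each). Cpa3, the mast cell carboxypeptidase, lay the other way without passing, at 5.43 ± 1.15 FPKM in FF-10501-01 and 3.23 ± 1.38 FPKM in vehicle (SD, n = 3 each, log2 fold change 0.64, adjusted p = 0.0865 from limma). The defining markers Fcer1a, Cd200r3, Cma1 and Tpsb2 were listed at 0 in all 6 libraries. The summed level of the list was 348.5 to 387.9 FPKM in FF-10501-01 and 355.4 to 380.7 FPKM in vehicle, most of it from the merged entry of Ms4a2 and Ms4a3 and from Hdc. The part of Mcpt8-bearing cells in the level of Gata2 was not tested.

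Runx1 (chr16:92601466-92826149, - strand) encodes the DNA-binding subunit of core binding factor, needed for the first blood stem cells and for PU.1 expression. Runx1 had 48.2, 47.7 and 48.3 FPKM in FF-10501-01 and 41.7, 46.9 and 47.2 FPKM in vehicle. The FF-10501-01 libraries were nearly identical and just above the vehicle libraries, of which replicate 1 was the lowest. The log2 fold change of 0.09 did not pass (adjusted p = 0.310 from limma), and without vehicle replicate 1 it was 0.03.

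The order of the levels was Spi1, Cebpb, Irf8, Gfi1, Cebpd, Cebpe, Runx1, Cebpa, Gata2 and Klf4 in FF-10501-01. In vehicle, Runx1 stood before Cebpd and Cebpe, and the order was otherwise the same. Neighbours whose libraries overlapped were Cebpd with Cebpe and Cebpe with Runx1 in FF-10501-01, and Runx1 with Cebpd and Cebpd with Cebpe in vehicle. The other neighbours did not overlap in either group.

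The balance between factors that oppose or follow each other was compared within each library, as the difference of their log2(FPKM + 1), which no scaling between libraries can move by much. Spi1 exceeded Gata2 by 3.85, 4.15 and 4.40 in FF-10501-01 and by 3.41, 3.56 and 3.48 in vehicle. It exceeded Cebpa by 3.20, 3.30 and 3.65 in FF-10501-01 and by 2.98, 2.93 and 2.79 in vehicle. In both pairs every FF-10501-01 library was above every vehicle library, so that Spi1 stood further above Gata2 (by 0.65) and Cebpa (by 0.48) after the drug. The group difference of each pair is the difference of the log2 fold changes given above for its genes. The pairs therefore restate those values and are not separate results.

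Gfi1 was below Irf8 in all 6 libraries. The difference of Gfi1 and Irf8 was -0.52, -0.36 and -0.11 in FF-10501-01 and -0.69, -0.35 and -0.81 in vehicle, with overlap. That of Cebpe and Irf8 was -1.05, -0.90 and -0.55 in FF-10501-01 and -1.40, -0.99 and -1.27 in vehicle, with overlap between FF-10501-01 replicate 1 and vehicle replicate 2. Cebpb exceeded Cebpa by 2.30 ± 0.21 in FF-10501-01 and by 1.94 ± 0.17 in vehicle (SD, n = 3 each). Over these 5 pairs, the exact two-sided permutation p was 0.1 for Spi1 with Gata2 and with Cebpa, 0.2 for Cebpe with Irf8 and Cebpb with Cebpa, and 0.3 for Gfi1 with Irf8. Adjusted over the 5 pairs, these became 0.25 and, for Gfi1 with Irf8, 0.3. As 3 libraries against 3 allow no p below 0.1, none of the pairs could pass.

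Genes that these factors act on, or act with, were taken from lists written from general knowledge. The lists were chosen with earlier results of these data known, so their counts only describe these data. Over all entries tested, 7.43% passed as higher, 7.46% passed as lower and 32.8% had an unadjusted p under 0.05 in limma. Of 24 neutrophil genes driven by C/EBP factors, 21 were tested, 11 passed as higher and 0 as lower in limma (1 lower at an unadjusted p under 0.05), and their median log2 fold change was 0.35, against -0.01 over all entries. Among them, S100a9, which encodes a calprotectin subunit, had 283.0 ± 131 FPKM in FF-10501-01 and 67.5 ± 7.30 FPKM in vehicle (SD, n = 3 each, adjusted p = 0.0091 from limma). Mmp9, the gelatinase of neutrophil granules, had 43.3 ± 5.69 FPKM in FF-10501-01 and 21.1 ± 1.703 FPKM in vehicle (SD, n = 3 each, adjusted p = 0.0060 from limma). Cd177, a neutrophil surface protein, and the merged lysozyme entry Lyz1,Lyz2 also rose, with log2 fold changes of 0.91 and 0.52. Elane, the most abundant gene that did not pass, encodes the primary granule protease neutrophil elastase and had 2316 ± 167 FPKM in FF-10501-01 and 1988 ± 157 FPKM in vehicle (SD, n = 3 each, adjusted p = 0.0647 from limma). The 1 gene lower at an unadjusted p under 0.05 was Chil3 (entry Chi3l3), named because it was the only one. Chil3 had 463.9 ± 106 FPKM in FF-10501-01 and 695.5 ± 174 FPKM in vehicle, with overlap (SD, n = 3 each, adjusted p = 0.0857 from limma). The count of genes of this list that were higher was 7 without vehicle replicate 1.

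**Figure D4:**
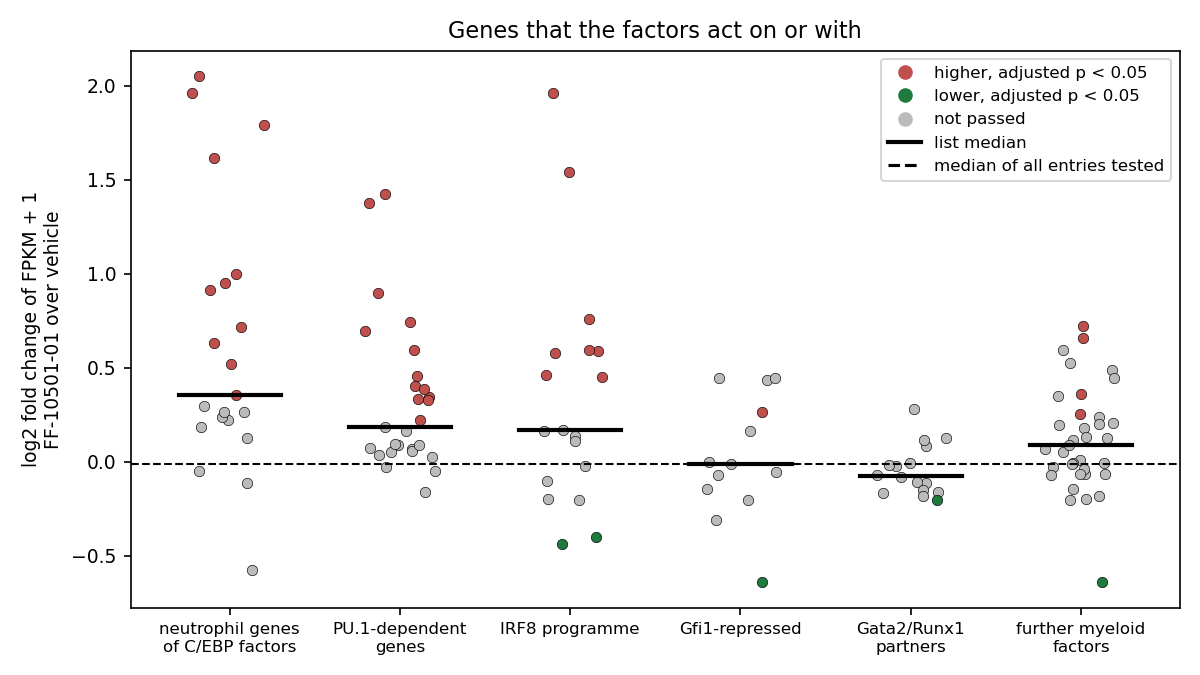
log2 fold change of FPKM + 1 (vertical axis, FF-10501-01 over vehicle) of each tested gene in 6 lists of genes that the factors act on or with. Points are genes, solid bars are list medians and the dashed line is the median of all entries, and the medians run from 0.35 in the C/EBP neutrophil list to -0.07 in the Gata2 and Runx1 list.

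Most tested markers of mature neutrophils were higher, as were Cebpd, Cebpe and many of these neutrophil genes. All 8 listed markers had an entry, 5 were tested and 4 passed as higher, where 7.43% of all entries tested did so. However, Mmp8, Mmp9, Cxcr2, Ltf and Csf3r stand in both lists. The groups overlapped in Mmp8, which did not pass (adjusted p = 0.224 from limma). The summed level of the 8 markers was 125.0 to 154.9 FPKM in FF-10501-01 and 80.6 to 89.8 FPKM in vehicle, most of it from Csf3r and Mmp9. Retnlg, which was not tested, had a mean of 0.49 FPKM in FF-10501-01 and 0.11 FPKM in vehicle. Ly6g, the defining surface antigen, was at 0.20, 0.00 and 0.84 FPKM in FF-10501-01 and was listed at 0 in all vehicle libraries. Ltf, which encodes the secondary granule protein lactoferrin, was at 1.16, 1.34 and 1.56 FPKM in FF-10501-01 and at 0.27, 0.21 and 0.13 FPKM in vehicle. The GFP sort should remove host neutrophils, and their part in the levels of Cebpd and Cebpe was not tested.

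Of 29 genes whose myeloid expression depends on PU.1, 27 were tested, 13 passed as higher and 0 as lower in limma (0 lower also at an unadjusted p under 0.05), with a median log2 fold change of 0.19. Over all entries tested, 7.43% passed as higher and 7.46% as lower. Fcgr1, the high-affinity Fc gamma receptor, had 4.56 ± 0.75 FPKM in FF-10501-01 and 1.15 ± 0.35 FPKM in vehicle (SD, n = 3 each). Itgb2, the common chain of the leukocyte integrins, had 210.7 ± 14.2 FPKM in FF-10501-01 and 152.9 ± 1.84 FPKM in vehicle (SD, n = 3 each). Both had an adjusted p of 0.0060 from limma. Fgr, a Src family kinase, and Cybb, the catalytic subunit of the phagocyte oxidase, rose by 0.89 and 0.69 on the log2 scale. Not all PU.1 genes did so: Tyrobp, the adaptor of several myeloid receptors, had 764.7 ± 21.6 FPKM in FF-10501-01 and 726.4 ± 13.04 FPKM in vehicle (SD, n = 3 each, adjusted p = 0.1998 from limma). The count was 8 without FF-10501-01 replicate 3.

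The libraries of Irf8 itself overlapped, but 8 of 18 tested genes of its monocyte and dendritic programme passed as higher and 2 as lower (22 listed, median log2 fold change 0.17, against 7.43% higher and 7.46% lower over all entries tested). Those with the smallest p were Ctss, a lysosomal protease, Ly6c2, a surface antigen of inflammatory monocytes, Mpeg1, a pore-forming protein, and Ctsc, the protease that activates granule enzymes. Their log2 fold changes were 0.59, 0.46, 0.60 and 0.58, and that of Ly6c2 is less certain, as the gene has a near-identical neighbour. Ccr2, a monocyte chemokine receptor, and Cadm1, an adhesion molecule, were the 2 that fell, by 0.44 and 0.40 on the log2 scale, and are named because they were so few. Cst3, an abundant protease inhibitor, had 634.1 ± 20.8 FPKM in FF-10501-01 and 645.4 ± 12.99 FPKM in vehicle (SD, n = 3 each). Without vehicle replicate 1, or with no filter on low values, 3 of the programme's genes passed as higher. Without vehicle replicate 3 or FF-10501-01 replicate 3, 4 did. The count lower in limma was 0 without vehicle replicate 1, FF-10501-01 replicate 2 or FF-10501-01 replicate 3 and with no filter. It was 1 without vehicle replicate 3 or FF-10501-01 replicate 1, with the filter at 5 FPKM and without the variance trend. Ctsc had an adjusted p from limma of 0.0635 without vehicle replicate 1, 0.0507 without vehicle replicate 3, 0.0524 without FF-10501-01 replicate 3 and 0.0578 with no filter.

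Markers of tissue macrophages and dendritic cells were looked at beside the PU.1 and Irf8 genes. For comparison, 7.43% of all entries tested passed as higher and 7.46% as lower. Of 10 macrophage markers, 4 were tested and 2 passed as higher, Siglec1 and Vcam1, and their summed level was 78.3 to 99.3 FPKM in FF-10501-01 and 60.6 to 68.2 FPKM in vehicle, most of it from Vcam1. Cd163, the scavenger receptor, lay the other way without passing, at 0.43 ± 0.38 FPKM in FF-10501-01 and 1.98 ± 1.06 FPKM in vehicle (SD, n = 3 each, adjusted p = 0.0532 from limma). The defining markers Timd4, Mrc1 and Spic stayed under 0.3 FPKM in every library. C1qa, C1qb and C1qc were below the minimum level and were not tested. Their means were 0.76, 0.865 and 1.07 FPKM in FF-10501-01 and 0.31, 0.68 and 0.50 FPKM in vehicle. The groups overlapped in C1qb, while C1qa and C1qc were higher in every FF-10501-01 library than in any vehicle library. Of 8 dendritic cell markers, 2 were tested, of which Bst2, an interferon-induced surface protein, passed as higher and Flt3, a receptor that progenitors also carry, as lower. Siglech was listed at 0 in all 6 libraries, and Clec9a, Zbtb46, Cd209a and Xcr1 stayed under 0.2 FPKM. The part of these cells in the levels of the PU.1 and Irf8 genes was not tested.

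Of 13 tested genes that Gfi1 represses (15 listed, Irf8 and Cebpa among them), 1 passed as higher and 1 as lower, with a median log2 fold change of -0.01. These counts are near the share of all entries tested, of which 7.43% passed as higher and 7.46% as lower. Egr1, an immediate early factor that favours macrophages, fell to 57.5 ± 7.86 FPKM in FF-10501-01, against 89.8 ± 4.001 FPKM in vehicle (SD, n = 3 each, adjusted p = 0.0091 from limma). Hoxa9, a homeobox gene that MLL-AF9 switches on and whose entry is merged with Mir196b, had 245.9 ± 8.01 FPKM in FF-10501-01 and 205.2 ± 23.4 FPKM in vehicle (SD, n = 3 each, adjusted p = 0.0465 from limma). Without any 1 library other than vehicle replicate 2, Hoxa9 did not pass, with adjusted p values of 0.0876 to 0.147 from limma. Nor did it pass with no filter on low values (0.107) or without the variance trend (0.0810). Csf1r, the receptor of the macrophage growth factor, is in this list and in those of PU.1 and Irf8 and had 36.5 ± 0.56 FPKM in FF-10501-01 and 32.5 ± 1.60 FPKM in vehicle (SD, n = 3 each, adjusted p = 0.0575 from limma).

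Among 16 tested partners of Gata2 and Runx1 in the stem and progenitor circuit (21 listed), 0 passed as higher and 1 as lower in limma (unadjusted p under 0.05: 2 higher, 4 lower), and the median log2 fold change was -0.07. Over all entries, 7.43% passed as higher and 7.46% as lower, and 32.8% had an unadjusted p under 0.05 in limma. The gene that fell was Etv6, an ETS repressor of stem cells, with 66.0 ± 0.73 FPKM in FF-10501-01 and 76.3 ± 1.97 FPKM in vehicle (SD, n = 3 each, adjusted p = 0.0179 from limma). For Etv6 the adjusted p was 0.0581 without vehicle replicate 1, 0.0517 without FF-10501-01 replicate 2 and 0.0667 without FF-10501-01 replicate 3. Lmo2, which bridges Gata2 and its partners, had 278.9 ± 1.77 FPKM in FF-10501-01 and 231.2 ± 30.7 FPKM in vehicle (SD, n = 3 each, adjusted p = 0.0583 from limma), and it was the libraries of the vehicle group that were spread. The adjusted p of Lmo2 was 0.0185 without vehicle replicate 2. Gata1, Gata3, Gfi1b, Tal1 and Mecom were under 1 FPKM in every library and were not tested.

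Of 35 tested further myeloid factors (45 listed), 4 passed as higher and 1, Egr1, as lower, with a median log2 fold change of 0.09. The 4 were Cebpg, Ets1, Atf3 and Stat3. Of all entries tested, 7.43% passed as higher and 7.46% as lower. Ets1, an ETS factor like PU.1, had 12.97 ± 1.05 FPKM in FF-10501-01 and 7.93 ± 1.49 FPKM in vehicle (SD, n = 3 each), and Atf3, a stress-induced repressor, had 19.2 ± 2.68 FPKM in FF-10501-01 and 11.5 ± 3.19 FPKM in vehicle (SD, n = 3 each). Junb, an AP-1 subunit and the most abundant that did not pass, had 153.3 FPKM in FF-10501-01 and 161.2 FPKM in vehicle. The count of those higher in limma was 0 without FF-10501-01 replicate 3, and 2 without FF-10501-01 replicate 2, vehicle replicate 1 or vehicle replicate 3. It was also 2 with no filter on low values and without the variance trend. The count of those lower was 2 without vehicle replicate 2 or 3 and with quantile normalization.

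For each factor that passed, the entries whose log2 profile over the 6 libraries lay closest to it were found by Euclidean distance after centring. Closest to Cebpd were Zhx2, D030028A08Rik and Smpdl3a (distances 0.07 to 0.08, where the median over all entries was 0.58). Closest to Cebpe were Tlr2, which encodes a receptor for bacterial lipoproteins, Expi and Cldn15 (0.08 to 0.11, median 0.64). For Spi1 they were Ccdc117, Trappc1 and Madd (0.03 to 0.06, median 0.34), and for Gata2 6230427J02Rik, N6amt1 and Tmem144 (0.05 to 0.09, median 0.67). These rankings rest on 6 libraries and describe likeness in level only.

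All 9 listed markers of myeloid progenitors and MLL-AF9 leukemia reached the minimum level, which by itself does not settle the label of the cells. Of these, 2 passed as higher, 2 as lower and 5 did not pass, where 7.43% of all entries tested passed as higher and 7.46% as lower. Kit, the stem cell factor receptor, had 35.5 ± 3.89 FPKM in FF-10501-01 and 42.7 ± 1.04 FPKM in vehicle (SD, n = 3 each), and Cd34, a progenitor antigen, had 90.7 ± 12.3 FPKM in FF-10501-01 and 132.0 ± 12.2 FPKM in vehicle (SD, n = 3 each). Both fell, like Gata2 (adjusted p = 0.0476 for Kit and 0.0176 for Cd34 from limma). Itgam, the integrin chain of mature myeloid cells, rose, with 213.5 ± 9.83 FPKM in FF-10501-01 and 169.4 ± 2.62 FPKM in vehicle (SD, n = 3 each). The other marker that passed as higher was Hoxa9, with a log2 fold change of 0.27, while Meis1, Mpo, Hoxa10, Csf1r and Ptprc did not pass. Summed markers of T cells (5.16 to 6.71 FPKM in FF-10501-01, 4.45 to 5.20 FPKM in vehicle), B cells (5.71 to 6.73 FPKM in FF-10501-01, 8.24 to 9.36 FPKM in vehicle) and NK cells (1.22 to 1.39 FPKM in FF-10501-01, 0.57 to 1.02 FPKM in vehicle) were low. The B cell and NK cell sums did not overlap between the groups. Most of the B cell sum was Cd79b, which passed as lower, with 5.92 ± 0.49 FPKM in FF-10501-01 and 7.96 ± 0.54 FPKM in vehicle (SD, n = 3 each, adjusted p = 0.0214 from limma). Klrk1, an NK cell marker that was not tested, had a mean of 0.85 FPKM in FF-10501-01 and 0.33 FPKM in vehicle.

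**Figure D5:**
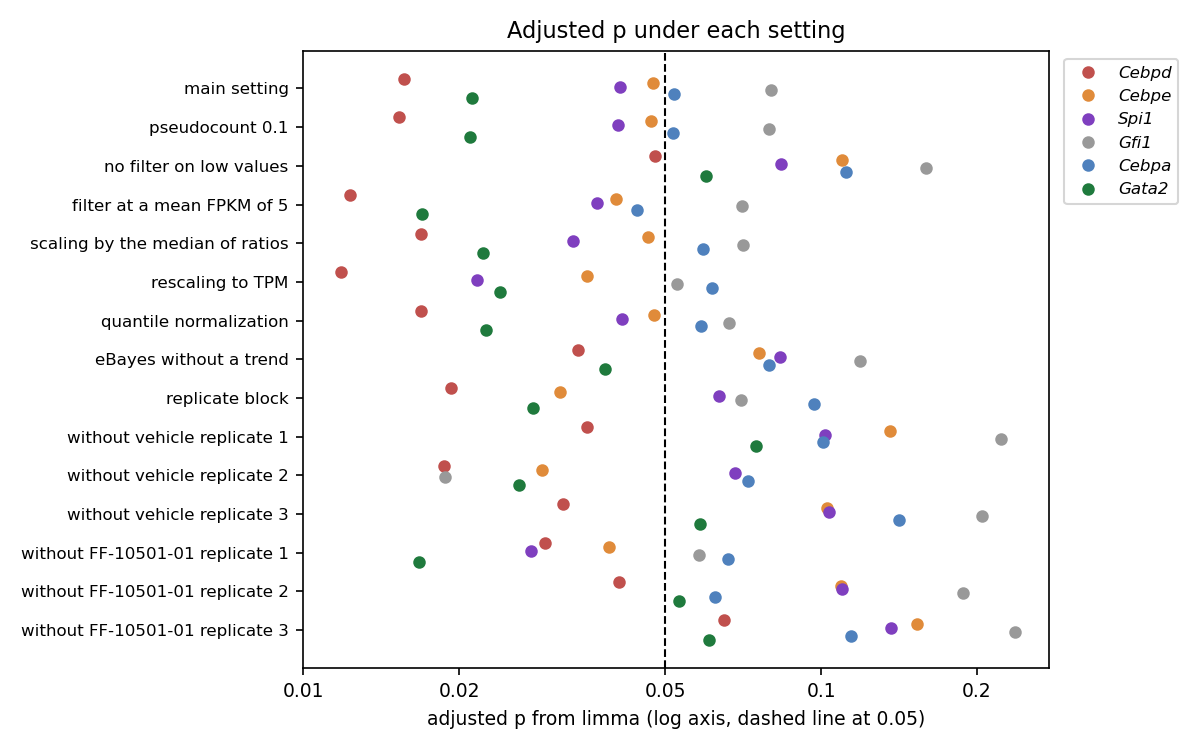
Adjusted p from limma (horizontal log axis, dashed line at 0.05) of the 6 factors with an unadjusted p under 0.05, in the main setting (top row) and in each alternative (other rows). Cebpd stays left of the line in all rows but that without FF-10501-01 replicate 3, while Gata2, Cebpe and Spi1 cross it in several.

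Over the 14 alternative settings run, Cebpd passed in 13, Gata2 in 9, Cebpe in 8 and Spi1 in 6, while Cebpa and Gfi1 passed in 1 each. The directions of these 6 factors were the same in each of the 14. The log2 fold change ranged from 0.32 to 0.45 for Cebpd, from 0.29 to 0.48 for Cebpe, from 0.15 to 0.22 for Spi1 and from -0.57 to -0.37 for Gata2. Leaving out FF-10501-01 replicate 3, the library with the lowest Gata2 and Cebpa and the highest Cebpd, Cebpe, Spi1 and Gfi1, left 0 of the 10 factors past the threshold in limma. Of the factors, 3 higher and 2 lower still had an unadjusted p under 0.05 in limma. The share of all entries at that p is known only for the main setting, where it was 32.8%. Over all entries, 147 passed as higher and 71 as lower without this library, against 818 and 821 in the main setting.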

How the data were processed

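RNA-Seq of GFP+ MLL-AF9 cells was measured in 3 FF-10501-01 and 3 vehicle libraries, grouped by the treatment in the labels. Reads were trimmed with cutadapt 1.8.1, aligned to GRCm38 with TopHat2 2.1.1 and turned into deposited FPKM by the authors with Cufflinks 2.2.1, according to the submitters' processing notes. Library columns carry a number and the group but not the mouse, so replicate numbers only name libraries. The study's methods count as many recipient mice as there are libraries. Read totals are not in the table, and no counting interval could be given. The ratios of low FPKM put relative depth at 0.99 to 1.25 of that of vehicle replicate 1, and Pearson's r across genes was 0.979 to 0.995 between libraries. Of the 26384 entries, 394 merge several genes and were kept as 1 entry each.

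FPKM were tested as log2(FPKM + 1) with limma 3.58.1 in R 4.3.3, with treatment as the only term, a variance trend, two-sided tests and Benjamini-Hochberg adjustment over the 11004 entries with a mean of at least 1 FPKM. Fold changes on this scale understate changes of low genes. Of these entries, 818 passed as higher and 821 as lower. Single differences were tested by exact permutation of the 6 libraries. The authors name Cuffdiff, which needs reads. The scripts were tested on simulated data.

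The 10 factors and all gene lists were chosen with earlier results of these data known. Named genes are the 10 factors, up to 4 genes a list by smallest p, each list's most abundant gene that did not pass, the 3 entries nearest each factor that passed, and the markers. The alternatives tried were no filter, a filter at 5 FPKM, a pseudocount of 0.1, scaling by the median of ratios, TPM or quantiles, no variance trend, a replicate block and leaving out each library. Gene positions are those of GENCODE on GRCm38, and promoters are from RefSeq. Figures were drawn with matplotlib 3.10.9.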

Additional observations from a re-analysis of the deposited data

How the results depend on the processing

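With no filter on low values, 337 entries passed as higher and 244 as lower, and of the 10 factors 1 passed as higher and 0 as lower in limma (4 and 2 at an unadjusted p under 0.05). In the main setting, 32.8% of all entries tested had an unadjusted p under 0.05 in limma. Without the variance trend, 586 entries passed as higher and 512 as lower, and 1 factor passed as higher and 1 as lower. With the filter at a mean of 5 FPKM, 753 entries passed as higher and 792 as lower, and 3 factors as higher and 2 as lower. Leaving out 1 library at a time gave 147 to 884 entries higher and 71 to 789 lower, and 0 to 3 factors higher and 0 to 1 lower in limma (unadjusted p under 0.05: 3 to 4 higher, 2 lower). The fewest entries passed without FF-10501-01 replicate 3. Rescaling to TPM gave 1008 higher and 667 lower, against 818 and 821 as reported. The cause of these shifts was not tested. The replicate numbers did not pair the libraries, as same-numbered libraries correlated at -0.01, -0.07 and -0.04. With the number as a replicate block, 650 entries passed as higher and 602 as lower, and 2 factors as higher and 1 as lower, since Spi1 had an adjusted p of 0.0636 in limma. No called result turned its direction in any setting run. Without read totals, how far depth limits Klf4, at 2.69 FPKM in FF-10501-01 and 2.95 FPKM in vehicle, is unknown. Antisense genes overlap Cebpa, Cebpb, Gfi1 and Runx1 as well as Cebpd, and although the kit keeps strand, their reads may be shared where the counting did not use it.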
